A study of Rattus norvegicus with 6 samples.

Results

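Intronic circular RNAs (circRNAs) are the circRNAs of rat spinal cord that the deposited table assigns to the class "intronic", a name that places the circle within an intron of its host gene. How the authors assigned it was not stated, and intron coordinates were not used here to check it. They were chosen by that class alone, and they number 490 of the 11061 circRNAs in the table, or 4.43%. A circRNA is a closed loop of RNA, measured here by reads that cross its back-splice junction, the point where a downstream end joins an upstream one. A circle made wholly of intron can arise when the lariat left by splicing is not debranched and its tail is trimmed, or when back-splicing uses sites that the annotation does not list. In human cells some such circles stay in the nucleus and bind RNA polymerase II at their host gene, whereas most exonic circles are exported to the cytoplasm.

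The libraries came from spinal cords of Wistar rats aged 8 weeks. The injured group (SCI) holds 3 libraries from rats whose cord was transected, and the control group (sham) holds 3 from rats with a laminectomy, which opens the vertebral arch and leaves the cord uncut. The design text describes a complete transection, while the title can be read as incomplete, and the time after surgery was not stated. Whether each library is a separate rat is not said, so p-values measure the spread between libraries. A whole piece of cord was extracted, so fewer cells of a type and less RNA per cell cannot be told apart.

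Libraries held 9805 to 21255 back-splice reads, and every SCI library held more than any sham library. Each circRNA of the table had 2 or more reads in at least 1 library. Hosts of any class included the myelin gene Mbp (136 reads) and the astrocyte genes Slc1a2 (12 reads), Gfap (8 reads) and Aqp4 (2 reads). Among neuronal genes, Syt1 had 8 reads, Snap25 had 5 and Slc6a5 had 4, while the neuronal nuclear marker Rbfox3 had no circRNA. Chat, the acetylcholine-synthesising enzyme of motor neurons, hosted 2 circRNAs with 4 reads in all, and both were intronic. The hosts named in this paragraph were chosen after their values were seen.

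Intronic circRNAs took a smaller part of the back-splice reads in transected cord than in sham cord. The intronic circRNAs had 471 of 21255 reads in SCI replicate 1, 396 of 20847 in replicate 2 and 426 of 19603 in replicate 3. In sham they had 304 of 11631 reads in replicate 1, 322 of 9805 in replicate 2 and 457 of 12722 in replicate 3. The number of intronic reads thus overlapped between the groups, while the number of reads of all classes did not.

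As a share, intronic reads were 2.22% of SCI replicate 1 (95% Wilson interval 2.03 to 2.42), 1.90% of replicate 2 (1.72 to 2.09) and 2.17% of replicate 3 (1.98 to 2.39). In sham the shares were 2.61% (2.34 to 2.92), 3.28% (2.95 to 3.66) and 3.59% (3.28 to 3.93) for replicates 1, 2 and 3. The intervals cover counting error only and take reads as independent. Reads that carry no molecular identifier cannot be counted as molecules, so the intervals may be too narrow. Every sham library lay above every SCI library, and the sham values were the more scattered. The means were 2.10% ± 0.172 in SCI and 3.16% ± 0.500 in sham (n = 3 per group, SD), a ratio of sham to SCI of 1.51. A two-sided exact permutation test gave p = 0.10, the smallest that 3 against 3 libraries allow, and 0.125 after Benjamini-Hochberg adjustment over the 5 library measures tested. Of the 5 classes in the table, 3 did not overlap between groups in this measure (60%), so a gap between groups was not unusual among classes.

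**Figure D1:**
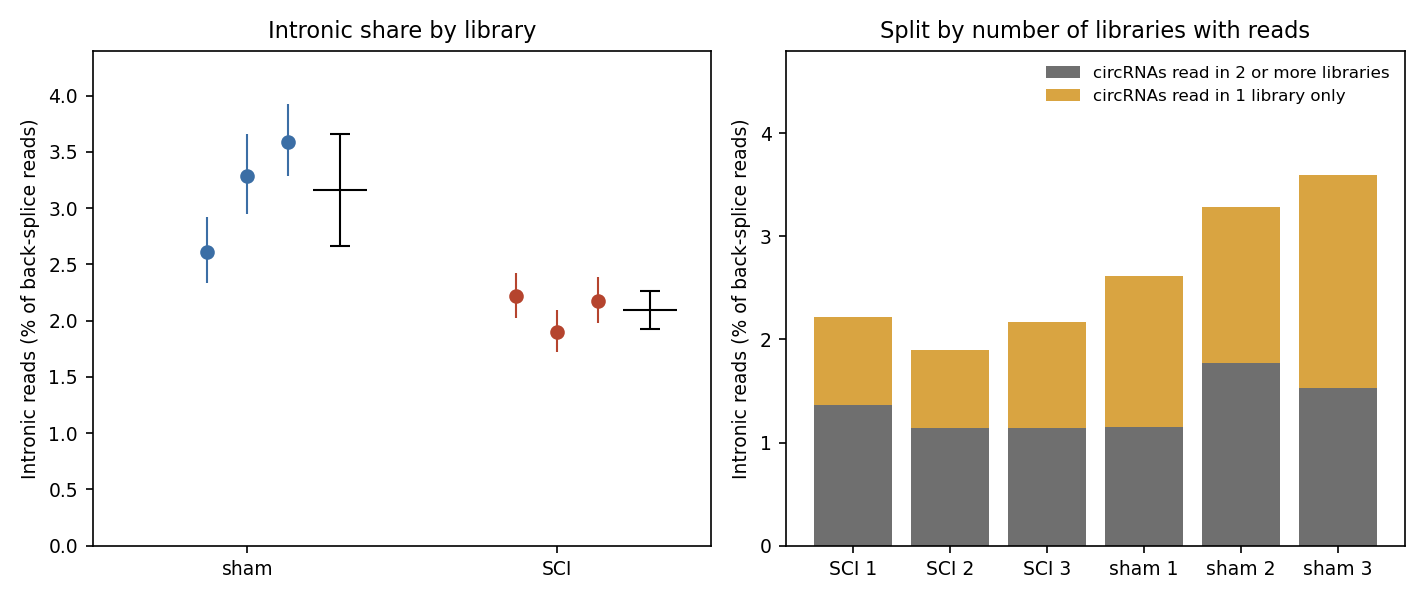
The left panel plots intronic reads as a percent of all back-splice reads per library (points, with 95% Wilson intervals) and the group mean with its SD (black). The right panel splits the same percent by whether a circRNA had reads in 1 library only or in more. All 3 sham libraries (2.61% to 3.59%) lie above the SCI libraries (1.90% to 2.22%), and the part from circRNAs read in 1 library is also higher in each sham library.

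The gap was also seen when intronic reads were set against each of 3 other classes. The log2 ratio of intronic to exonic reads was -4.91 ± 0.0972 in SCI and -4.27 ± 0.253 in sham (n = 3 per group, SD), which is 1.57-fold higher in sham. The groups did not overlap, and the two-sided exact permutation test gave p = 0.10 (adjusted 0.125). With sense overlapping reads as the reference the log2 difference between SCI and sham was -0.51, and with intergenic reads it was -0.56. The share of exonic circRNAs, the largest class, was 63.1% ± 1.05 for SCI libraries and 60.3% ± 0.741 for sham libraries (n = 3 per group, SD).

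Most intronic circRNAs were read in a single library, and these carried most of the gap. Of the 490, 401 (81.8%) had reads in only 1 library, against 78.4% of intergenic, 75.9% of antisense, 63.9% of sense overlapping and 51.9% of exonic circRNAs, and 8 had reads in all 6. The single-library circRNAs took 0.852%, 0.758% and 1.04% of all back-splice reads in SCI replicates 1, 2 and 3, and 1.46%, 1.51% and 2.06% in sham, with no overlap. The circRNAs with reads in 2 or more libraries took 1.21% ± 0.130 in SCI and 1.49% ± 0.314 in sham (n = 3 per group, SD). Those groups overlapped, and the exact permutation p was 0.2, in an alternative chosen after the data were seen. Reading in 1 library is itself an outcome of the counts, so this split is a description. A circRNA with few reads is a larger share of a smaller library, and every sham library was the smaller. Depth and group cannot be told apart here. Exonic circRNAs split alike: single-library ones held 14.7% to 16.2% of exonic reads in SCI and 17.3% to 21.7% in sham, without overlap. For intronic reads these parts were 38.4% to 47.7% and 46.0% to 57.3%, which overlapped.

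Single-library circRNAs were also read more deeply in sham replicate 3. A single-library intronic circRNA had on average 2.48, 2.32 and 2.54 reads in SCI replicates 1, 2 and 3 and 2.98, 2.39 and 4.30 in sham. Sham replicate 3 held 25 single-library intronic circRNAs with 5 or more reads, against 1 to 6 in each of the other libraries. Exonic circRNAs moved alike, with 2.51 to 2.56 reads per single-library circRNA in SCI and 3.22, 2.53 and 4.42 in sham. The part of this unevenness in the intronic share was not tested. Without sham replicate 3 the intronic share still differed by -0.853 percentage points (SCI minus sham), against -1.07 with it.

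Intronic circRNAs also formed a smaller part of the circRNAs detected in transected cord, by a narrow margin. The SCI libraries held 139, 118 and 135 intronic circRNAs with at least 1 read and the sham libraries 77, 103 and 97, beside the larger SCI totals. As a share of all circRNAs detected, they were 2.99%, 2.58% and 3.01% in SCI and 3.01%, 3.71% and 4.55% in sham. The highest SCI value (3.008%) and the lowest sham value (3.013%) nearly touched. The means were 2.86% ± 0.238 and 3.76% ± 0.771 (n = 3 per group, SD; two-sided exact permutation p = 0.10, adjusted 0.125). Without sham replicate 3 the difference of -0.899 percentage points was -0.503, and the groups overlapped without the most-read intronic circRNA, among those with 5 or more reads and with detection set at 2 reads (exact permutation p = 0.2 each). Thinned to 9805 reads per library, the number detected was 99.2 ± 9.78 in SCI and 90.9 ± 14.1 in sham (n = 3 per group, SD), with overlap. Reads per detected intronic circRNA were 3.30 ± 0.126 and 3.93 ± 0.793 (n = 3 per group, SD; exact permutation p = 0.4, adjusted 0.4). Thinned to the same 9805 reads they were 2.07 and 3.42, a difference of -1.35 against -0.63 unthinned, without overlap (exact permutation p = 0.10). At that depth all classes together gave 3513 ± 21.4 detected circRNAs in SCI and 2447 ± 351 in sham (n = 3 per group, SD), without overlap. Fewer reads per detected circRNA in SCI were thus not particular to the intronic class. The lower intronic share of detected circRNAs stood beside more circRNAs of all classes in SCI, not fewer intronic ones.

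Intronic circRNAs spanned the shortest stretches of genome among the 5 classes. Their median span was 1316 bp, with quartiles of 430 and 5272 bp, against a median of 11695 bp for exonic, 11918 bp for sense overlapping, 6076 bp for antisense and 2376 bp for intergenic circRNAs. Spans under 1000 bp made up 43.9% of intronic and 7.55% of exonic circRNAs. The table's predicted length equalled the span for all 490, so each is listed as unspliced, whereas this held for 1076 of 6967 exonic circRNAs. Span may have entered the class assignment, so these values are a description with no test.

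**Figure D2:**
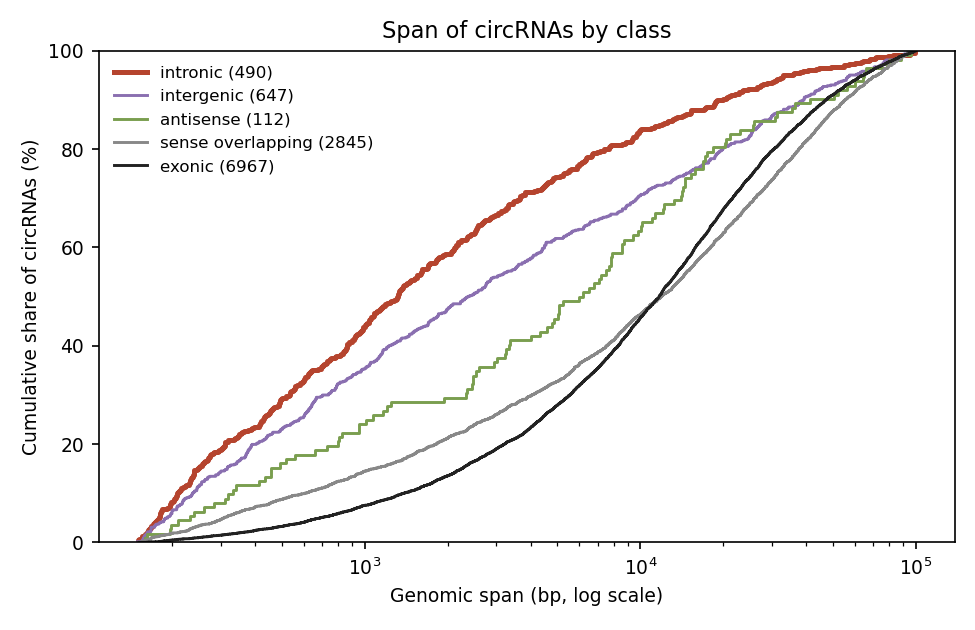
Cumulative share of circRNAs (percent) against genomic span (bp, log scale) for the 5 classes, with the number of circRNAs in brackets. The intronic curve lies to the left of the others, with a median of 1316 bp against 11695 bp for exonic circRNAs.

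The extremes of span were thinly read. The shortest were circles of 151 bp in Stard13, a GTPase-activating protein gene (chromosome 12, 1097197 to 1097347, minus strand), and in Gli2, a transcription factor of Hedgehog signalling (chromosome 13, 39995440 to 39995590, minus strand). Each had 2 reads, in SCI replicate 2 and in sham replicate 3. A circle of 152 bp in Cdh13, the T-cadherin gene (chromosome 19, 62504664 to 62504815, plus strand), had 3 reads in sham replicate 1. The longest were 99570 bp in the major histocompatibility gene RT1-CE14 (chromosome 20, 6870331 to 6969900, minus strand), 98980 bp in LOC102553742 (chromosome 1, 118719737 to 118818716, minus strand) and 95424 bp in Magi2 (chromosome 4, 11828885 to 11924308, minus strand). Those 3 had 2 reads each, all in single SCI libraries. The table as a whole runs from 150 to 99882 bp, so the longest lie near its upper end.

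The intronic reads of transected cord came from longer circles. The median span over intronic reads was 5903, 5796.5 and 4675 bp in SCI replicates 1, 2 and 3 and 2918, 2656.5 and 1715 bp in sham, with no overlap. The means were 5458 ± 680 bp and 2430 ± 633 bp (n = 3 per group, SD; two-sided exact permutation p = 0.10, adjusted 0.125). With each detected circRNA counted once they were 2578 and 1329 bp, again without overlap. The size of the gap rested on a single circRNA of Mapre2: without it the means were 3310 and 1865 bp. Among circRNAs with 5 or more reads the medians were 7374 and 5719 bp and the groups overlapped (exact permutation p = 1).

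The groups were apart for short circles and overlapped for longer ones; the difference between the 2 ranges was not tested. Intronic circRNAs under 1000 bp took 0.452%, 0.441% and 0.566% of back-splice reads in SCI replicates 1, 2 and 3 and 0.886%, 0.775% and 1.60% in sham. Every sham library thus lay above every SCI library, and sham replicate 3 was the highest by far. Those of 1000 bp or more took 1.61% ± 0.153 in SCI and 2.08% ± 0.398 in sham (n = 3 per group, SD), with overlap. At 20000 bp or more the shares were 0.400%, 0.307% and 0.377% in SCI and 0.456%, 0.306% and 0.0943% in sham, lowest in sham replicate 3.

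**Figure D3:**
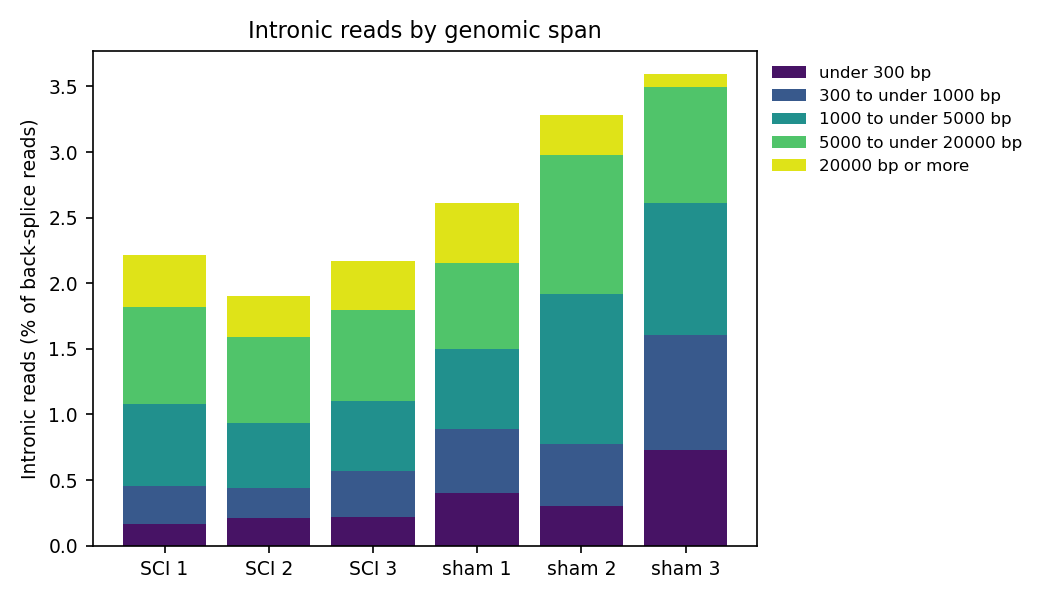
Stacked bars give intronic reads as a percent of back-splice reads in each library, divided by genomic span of the circRNA. The 2 lowest segments, spans under 1000 bp, together reach 0.775% to 1.60% in sham and 0.441% to 0.566% in SCI.

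Recurrence differed between ranges of span. Of the 92 intronic circRNAs under 300 bp, 5 had reads in 2 or more libraries, and of the 123 from 300 to under 1000 bp, 13 did. From 1000 to under 5000 bp it was 27 of 149, from 5000 to under 20000 bp 35 of 78, and at 20000 bp or more 9 of 48. The share was thus highest in the range from 5000 to under 20000 bp and lower again above it. The 28 with a circBase identifier, which marks a circRNA catalogued before, had a median span of 5270.5 bp, and 23 of them had reads in 2 or more libraries. Of the 462 without an identifier 66 did, and their median span was 1150 bp. Only 5.71% of intronic circRNAs carried an identifier, against 10.7% of antisense, 14.2% of intergenic, 24.5% of sense overlapping and 51.4% of exonic ones.

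The ends of intronic circRNAs were mostly their own. A start or end shared on the same strand with an exonic circRNA was found for 11 of 490 (2.24%), against 621 of 2845 sense overlapping circRNAs (21.8%). The class assignment may itself exclude such ends, so this is no check of the label. Only 180 of the 376 hosts (47.9%) had an exonic circRNA with which an end could be shared. Another intronic circRNA shared an end with 49 of them. Overlapping circles on the same strand merged into 427 loci, of which 35 held more than 1 circRNA and 98 circRNAs in all, and members of such a locus are not independent.

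Host genes were many, each usually with a single intronic circRNA. The 489 circRNAs with a host symbol came from 376 hosts, of which 314 had 1 intronic circRNA, 44 had 2 and 18 had 3 or more. For 218 hosts (58.0%) the table also held circRNAs of another class, and intronic reads were the larger part in 27 of these. RefSeq (rat, GRCr8) listed 341 of the hosts, 334 of them protein coding and 6 lncRNA genes. RefSeq places 338 on the chromosome that the table gives. The 3 exceptions were Bc1, Kcnh3 and Ddn, so the hosts of these circRNAs are uncertain. Host symbols of the LOC type, which mark genes without a formal name, were given to 15.3% of intronic circRNAs and to 4.26% of those of other classes.

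LOC102557203 hosted more intronic circRNAs than any other gene. Its 25 circRNAs were all intronic, on the plus strand of chromosome 6 between 142876136 and 143043067, a stretch of 166932 bp, with a median span of 4724 bp. They had 42, 34 and 33 reads in SCI replicates 1, 2 and 3 and 7, 11 and 43 in the sham libraries. These are raw reads, and every sham library had the smaller total. Relative to library totals, sham replicate 3 was above every SCI library, and sham replicates 1 and 2 were below them. As a share of the library's intronic reads, this host took 8.92%, 8.59% and 7.75% in SCI and 2.30%, 3.42% and 9.41% in sham.

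Within this host the circles differed in where they were read. The most-read (142939882 to 142943523) had 3, 10 and 12 reads in SCI replicates 1, 2 and 3 and 0, 1 and 0 in the sham libraries. Relative to the totals that was a ratio of 13.8, with an exact 95% interval of 2.27 to 568 that covers counting error only. A circle that encloses it (142938593 to 142957324) had 3, 10 and 4 reads in the SCI libraries and 0, 4 and 1 in the sham libraries. At the far left of the stretch, a circle of 15101 bp (142876136 to 142891236) had all its 12 reads in sham replicate 3. Of the 25 circles, 15 had reads in a single library, 19 were read in SCI and 14 in sham.

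**Figure D4:**
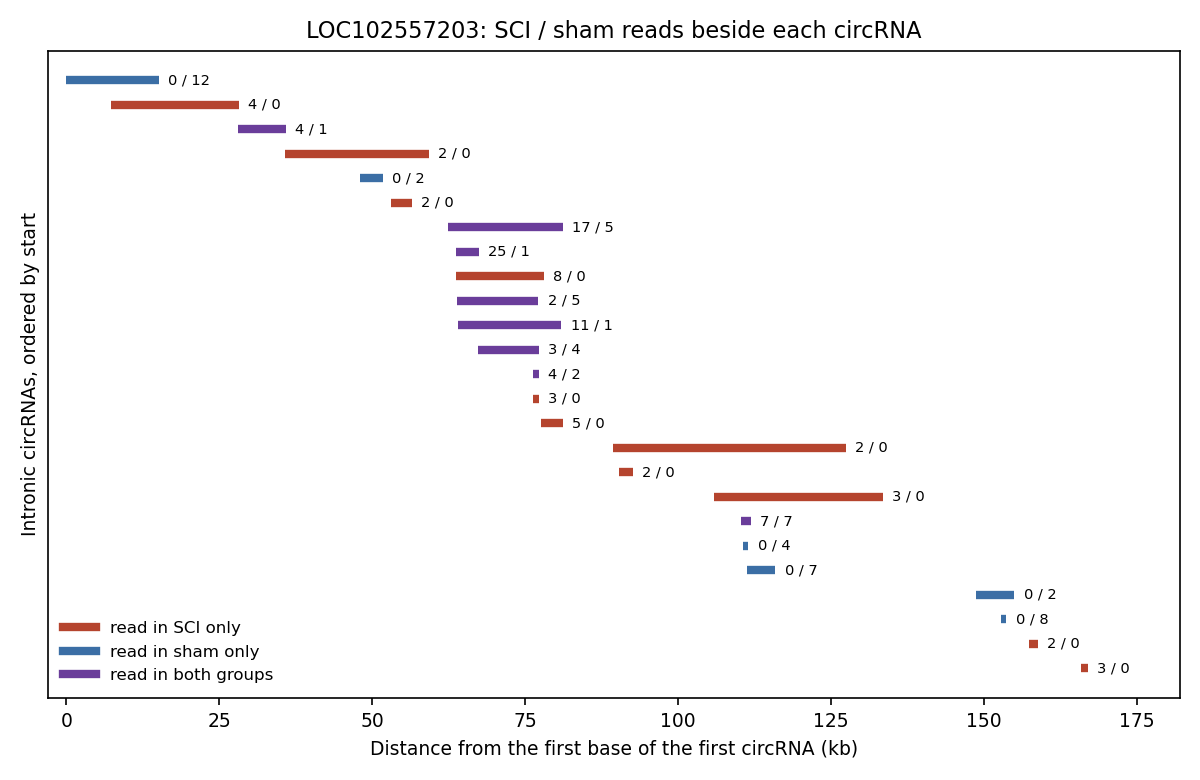
Each bar is 1 of the 25 intronic circRNAs of LOC102557203, drawn to scale from the first base of the first circRNA (kb), with its SCI and sham reads beside it. The circles overlap most near the middle of the stretch, where the most-read circRNA had 25 SCI reads and 1 sham read, while circles elsewhere were mostly read in 1 group.

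The other hosts with most intronic circRNAs had their reads in very different amounts. Mapre2, which encodes the microtubule end-binding protein EB2, had 6 circRNAs with 162 reads in SCI and 145 in sham, against 9 reads from its 4 circRNAs of other classes. LOC102546835, an lncRNA gene in RefSeq, had 5 with 84 and 59 reads. Pde4d, a cAMP phosphodiesterase gene, had 5 with 11 and 10 reads, of which the 10 were all in sham replicate 3. Ppp2r2b, a regulatory subunit gene of protein phosphatase 2A, had 5 with 13 and 5 reads.

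Reads were concentrated in few intronic circRNAs, with 12 of the 490 taking 32.2% of the 2376 intronic reads. The median intronic circRNA had 3 reads in all 6 libraries, and 350 had 2 or 3. The 468 that are not among those named by rule had 2 to 17 reads each. Only 9 passed the filter on low counts of the test for differences, and 8 of these had reads in every library. The lowest total of the 9 was 27 reads and the highest total of those left out was 26, so the test says nothing about 481 intronic circRNAs.

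Of the 9 tested, 0 passed edgeR's quasi-likelihood test at adjusted p under 0.05 over all 484 circRNAs tested, of which 1 passed (0.207%). DESeq2 and limma-voom also called 0 of the 9, and 1 of the 9 had an unadjusted p under 0.05 by each of the 3 tools, against 6.2% of all tested by edgeR. With no filter, 3 of the 490 had an unadjusted p under 0.05, against 2.13% of the table. Groups did not overlap, as reads over library totals, for 1 of the 9, against 15.3% of all tested. The log2 fold changes of SCI against sham were negative for 6 and positive for 3, with a median of -0.73 beside a median of 0.09 over all 484. This median and the split of signs depended on single libraries and on the tool. Without sham replicate 1 the median of the 9 was 0.17 with 5 positive, beside 0.32 over the circRNAs of the main fit. Without SCI replicate 3, where Sla2 did not pass the filter, it was -0.10 with 4 positive, beside 0.13. With limma-voom it was -0.07 with 4 positive, beside 0.30. With no filter both medians rose alike, to -0.16 with 4 positive and to 0.67. That median of 0.09 moved by up to 0.58 with the filter and scaling, so fold changes are to be read relative to it.

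The circRNA of Mapre2 was the most-read intronic circRNA (chromosome 18, 15258334 to 15265707, plus strand, without a circBase identifier). It had 64, 39 and 49 reads in SCI replicates 1, 2 and 3 and 51, 49 and 35 in the sham libraries. Per 10000 back-splice reads that was 30.1, 18.7 and 25.0 in SCI and 43.8, 50.0 and 27.5 in sham. Sham replicates 1 and 2 were above every SCI library, and sham replicate 3 lay within the SCI range. The log2 fold change was -0.76 (SE 0.31), with an adjusted p of 0.727 by edgeR and an unadjusted p of 0.0276. It took 16.8% of the intronic reads of sham replicate 1, the largest part that any intronic circRNA took of a library.

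The lncRNA gene LOC102546835 (chromosome 1, minus strand) gave a pair of long, overlapping circles with uneven counts within both groups. The circle of 67855 bp (123746491 to 123814345) had 18, 22 and 4 reads in SCI replicates 1, 2 and 3 and 17, 10 and 1 in the sham libraries. The circle of 71074 bp (123741548 to 123812621) had 26, 1 and 4 reads in the SCI libraries and 21, 9 and 1 in the sham libraries. Both were at their lowest in sham replicate 3 among the sham libraries, and the spread within each group was as wide as the distance between groups. Their log2 fold changes were -0.32 (SE 0.80) and -0.98 (SE 0.96), and the signs of both turned without sham replicate 1 (0.53 and 0.17).

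**Figure D5:**
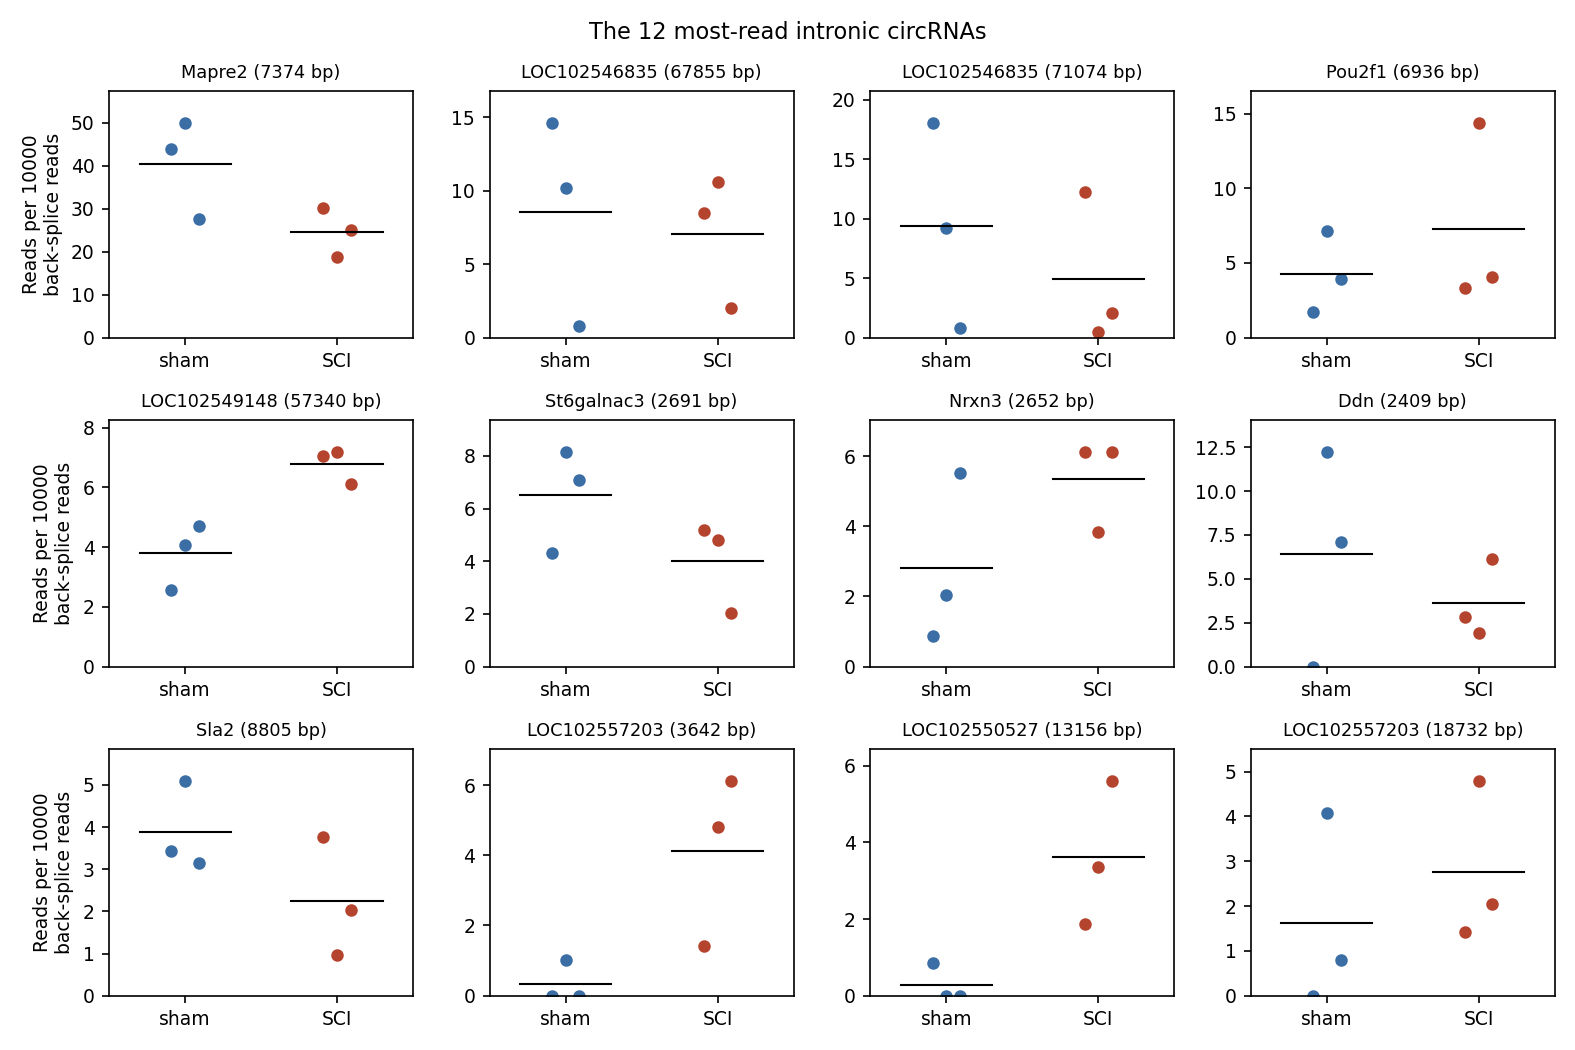
Reads per 10000 back-splice reads in each library (points) and group means (lines) for the 12 most-read intronic circRNAs, each panel with its own axis from 0. The LOC102549148, LOC102557203 (3642 bp) and LOC102550527 panels show no overlap between the groups, and the other 9 overlap. Of all 484 tested circRNAs, 15.3% did not overlap. LOC102557203 (3642 bp) and LOC102550527 were below the filter, with 1 sham read each, so that share does not cover them.

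Of the 3 tested circRNAs with a positive fold change, that of LOC102549148 was the steadiest. This circle of 57340 bp (chromosome 1, 201908539 to 201965878, minus strand) had 15, 15 and 12 reads in SCI replicates 1, 2 and 3 and 3, 4 and 6 in the sham libraries. Per 10000 back-splice reads the levels were 6.79 ± 0.584 and 3.79 ± 1.10 (n = 3 per group, SD). It was the 1 tested intronic circRNA whose groups did not overlap, yet its log2 fold change of 0.78 (SE 0.70) had an adjusted p of 0.944 by edgeR.

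Nrxn3 encodes neurexin-3, a presynaptic adhesion protein. Its circle (chromosome 6, 122466018 to 122468669, plus strand, in circBase) had 13, 8 and 12 reads in SCI replicates 1, 2 and 3 and 1, 2 and 7 in the sham libraries. The groups overlapped through sham replicate 3, and the log2 fold change was 0.85 (SE 0.85), or 1.95 without that library. With no filter it was 1.47, but the median of the 484 also rose, from 0.09 to 0.67.

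Pou2f1 encodes the transcription factor Oct-1. Its circle (chromosome 13, 89040318 to 89047253, minus strand, in circBase) had 7, 30 and 8 reads in SCI replicates 1, 2 and 3 and 2, 7 and 5 in the sham libraries. The 30 reads of SCI replicate 2 were 7.58% of that library's intronic reads. The log2 fold change of 0.75 (SE 0.80) turned to -0.17 without that library. Neither Nrxn3 nor Pou2f1 passed the test (adjusted p = 0.944 and 0.956 by edgeR).

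The other 3 tested circRNAs had negative log2 fold changes and groups that overlapped. That of St6galnac3, a sialyltransferase gene (chromosome 2, 278225318 to 278228008, minus strand, in circBase), had 11, 10 and 4 reads in SCI replicates 1, 2 and 3 and 5, 8 and 9 in the sham libraries (log2 fold change -0.73, SE 0.73). Its fold change was -0.36 without SCI replicate 3 and -0.44 without sham replicate 2. With no filter, where the median of the 484 rose from 0.09 to 0.67, it was -0.16. That of Sla2, a Src-like adaptor gene of lymphocyte receptor signalling (chromosome 3, 158722796 to 158731600, plus strand), had 8, 2 and 4 reads in the SCI libraries and 4, 5 and 4 in the sham libraries (-0.80, SE 0.96). A circle assigned to Ddn, the gene of the postsynaptic and podocyte protein dendrin (chromosome X, 114925302 to 114927710, minus strand, in circBase), had 6, 4 and 12 reads in the SCI libraries and 0, 12 and 9 in the sham libraries (-0.82, SE 0.96). The 0 of sham replicate 1 stood beside 12 in sham replicate 2. A shorter circle with the same end (114925386 to 114927710) had 2, 1 and 2 reads in the SCI libraries and 6, 5 and 0 in the sham libraries, so sham replicate 1 had the most reads of the shorter circle and 0 of the longer, and sham replicate 3 had 9 of the longer and 0 of the shorter. RefSeq places Ddn on chromosome 7, so this host is uncertain.

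Below the filter, LOC102550527 was read mainly in transected cord. The circle of this lncRNA gene (chromosome 13, 118282687 to 118295842, plus strand) had 4, 7 and 11 reads in SCI replicates 1, 2 and 3 and 1, 0 and 0 in the sham libraries. The ratio relative to the totals was 12.2, with an exact 95% interval of 1.97 to 503 for counting error only. Every SCI library was above every sham library. For circRNAs below the filter, the share whose groups do not overlap was not computed, so this gap has no background beside it.

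Few intronic circRNAs were read in every library of one group and in none of the other. Reads in all 3 SCI libraries and in no sham library were found for 5 intronic circRNAs (1.02%), against 2.87% of all 11061 circRNAs. They were circles in Spag9, a scaffold gene of JNK signalling, and Fhod3, a formin gene, with 2, 1 and 2 reads each in SCI replicates 1, 2 and 3, in LOC102546835 (71696 bp) and Sectm1b with 4 reads each, and in the sialyltransferase gene St6galnac5, named after its values were seen. With 4 or 5 SCI reads against 0, and 3 reads taken as the limit that 0 allows over the 3 sham libraries, no bound above 1 results, so no fold is given. The reverse pattern was found for 0 intronic circRNAs and for 0.0633% of the table. In all, 248 intronic circRNAs (50.6%) were read only in SCI, against 49.2% of the table, and 184 (37.6%) only in sham, against 22% of the table, with no test of these differences. The SCI libraries held 61705 back-splice reads in sum and the sham libraries 34158, which bears on such counts. The other 58 were read in both groups and held 1129 of the 2376 intronic reads.

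Over the whole table, 376 of 4501 hosts (8.35%) had an intronic circRNA, and the host lists below are described beside that share, with no test. Of 53 hosts of neuronal and synaptic function in the table, 9 (17.0%) had an intronic circRNA, 17 circRNAs in all with 62 reads in SCI and 26 in sham, and 13 of the 17 were read in 1 library. Most of the reads were from Nrxn3 (39 and 10). The synaptic vesicle gene Syn2 had 6 and 6, and the synaptic scaffold gene Magi2 had 7 and 0. The shares of back-splice reads were 0.0863% to 0.128% in SCI and 0.00860% to 0.153% in sham, which overlapped.

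Ion channel and transmitter receptor hosts gave 13 intronic circRNAs from 11 of 61 hosts (18.0%), with 25 reads in SCI and 27 in sham. The calcium channel subunit gene Cacna2d3 had 7 and 12 reads, Kcnh5 had 0 and 6, and Kcnd2 had 3 and 2, both potassium channel genes. The 6 reads of Kcnh5 were all in sham replicate 1. Groups overlapped for this list (0.0329% to 0.0528% in SCI and 0.0204% to 0.112% in sham).

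Axonal and cytoskeletal hosts were the list with most intronic reads and did not overlap between groups. They took 0.187% to 0.334% in SCI and 0.456% to 0.551% in sham, from 14 circRNAs of 7 of 38 hosts (18.4%). Of their 338 reads, 307 were from Mapre2. The ankyrin-G gene Ank3 had 5 and 4 reads, and the netrin receptor gene Dcc had 0 and 9, all 9 in sham replicate 3.

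Among glial hosts, those of oligodendrocytes and myelin gave most intronic circRNAs. They gave 8, from 7 of 29 hosts (24.1%), with 17 SCI reads and 5 sham reads, each circRNA read in 1 library. The shares of back-splice reads overlapped between the groups (0.0141% to 0.0408% in SCI and 0% to 0.0393% in sham). Plcl1, which encodes a phospholipase C-like protein, had 5 and 3 reads, and Enpp2, the autotaxin gene, and the ubiquitin ligase gene Rnf220 had 3 and 0 each. Mbp had no intronic circRNA. Of the precursor list Lrrc4c, a netrin-G ligand gene, had 2 and 3 reads, and of 17 astrocyte hosts Gpc5, a glypican gene, had 2 and 0.

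Lists for other cell types had few hosts in the table and few intronic reads. An intronic circRNA was found for 2 of 10 microglia and macrophage hosts (20%) and 1 of 8 endothelial and pericyte hosts (12.5%). It was found for 1 of 7 fibroblast hosts (14.3%) and 1 of 2 skeletal muscle hosts (50%). Among microglia and macrophage hosts the transcription factor gene Spi1 had 2 and 1 reads and Arhgap15, a GTPase-activating protein gene, had 0 and 3. The endothelial and pericyte list had 2 SCI reads in Ebf1, the fibroblast list 2 sham reads in the laminin gene Lama2, and the skeletal muscle list 3 SCI reads in the titin gene Ttn. The Schwann cell, red blood cell, and neutrophil and lymphocyte lists had none, from 2, 1 and 2 hosts in the table. Neither had the housekeeping and translation list, though 10 of its hosts gave circRNAs of other classes. No member of these lists was tested.

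Hosts of nuclear function had intronic circRNAs at about the share of the whole table. The chromatin and ubiquitin list gave 6 from 6 of 58 hosts (10.3%), with 7 reads in SCI and 8 in sham, among them Baz2b (0 and 3), Fbxw7 (3 and 0) and Ube3a (0 and 3). RNA processing hosts gave 4 from 2 of 24 (8.33%), namely Hnrnpc (3 and 0) and the splicing factor gene Rbm39 (11 and 6). A circle of 1313 bp assigned to Rbm39 lies on the minus strand of chromosome 3 (158086791 to 158088103), and another of 1313 bp lies on the plus strand (159432783 to 159434095). They had 8 and 3 reads in the SCI libraries and 3 and 0 in the sham libraries, and near-identical copies could divide these reads, so the Rbm39 values are uncertain.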

How the data were processed

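Back-splice junction reads were counted in 6 spinal cord libraries. The authors deposited raw junction read counts per circRNA, and log2 CPM values made with edgeR, per the file headers, and the log2 values were not used here. Per the submitters' processing notes, Bowtie 0.12.2 and the build mm8, a mouse build, were named, while the samples are rat. The sources used here do not give the circRNA caller or the build behind the coordinates, which are therefore quoted unchanged from the table and count from 1. Per the labels' protocols, RNA was extracted with Trizol and libraries were made with a TruSeq RNA kit. The rule behind the intronic class was not stated.

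Counts of all 11061 circRNAs were fitted with edgeR 4.0.16 in R 4.3.3 (quasi-likelihood F test, TMM scaling, filterByExpr with min.count 5 and min.total.count 15, a model with the group alone). P-values were adjusted by Benjamini-Hochberg over the 484 circRNAs tested, with a threshold of 0.05, and SE is the log2 fold change over the root of F. DESeq2 1.42.0 and limma 3.58.1 (voom) were alternatives. Library measures were compared by two-sided exact permutation tests (SciPy 1.17.1). Reads per 10000 use each library's back-splice total. Library pairs gave a chi-square per degree of freedom of 2.22 to 5.24, so none agreed within sampling noise. Pairs within SCI gave 2.22 to 2.41 and pairs within sham 3.34 to 5.02. SCI libraries gave 2.57 to 2.73 against sham replicate 2, and 3.87 to 5.24 against sham replicates 1 and 3. Sham libraries thus differed from each other more than SCI libraries did from sham replicate 2. On simulated counts, of 502 tested, 8.16% of 2-fold, 54.8% of 4-fold and 95.2% of 8-fold changes were recovered. Of the 502, 328 were unchanged, and 1 common dispersion was used for all. The share of changed circRNAs in the data is unknown, so these rates need not hold for the real fit.

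The circRNAs named were the 12 most read, those that passed the filter, those with the smallest p in each direction, up to 4 per group with reads in all 3 of its libraries and 0 in the other, the 3 longest and shortest, the 4 most read in circBase, the 5 hosts with most, up to 3 hosts for each of 16 lists, and the 3 with the largest part of a library. Members, rule and lists were chosen with earlier results of these data known.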

Additional observations from a re-analysis of the deposited data

How the results depend on the processing

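The 5 library measures kept their direction under every alternative run on them, 4 of which were chosen after seeing the data, as was the use of whole-table library totals in the count fit, and over all of them the share of reads differed by -1.34 to -0.272 percentage points. Leaving out each library in turn gave differences (SCI minus sham) of -1.34 to -0.853 percentage points for the intronic share of reads, -1.27 to -0.503 for the share of detected circRNAs, -0.79 to -0.54 for the log2 ratio to exonic reads, -1.03 to -0.237 for reads per detected circRNA (-1.35 when thinned) and 2671 to 3420 bp for the median span. With the replicate block these differences are the same by construction, -1.07 for the share of reads, with a smallest possible sign-flip p of 0.25. The main tests did not pair the libraries by replicate number. Same-numbered libraries correlated at 0.103, 0.0617 and 0.0900, and differently numbered ones at -0.0809 to -0.0159. That is a hint of pairing from the data, not from the design. The block called 2 circRNAs instead of 1 over the whole table, and no intronic circRNA.

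The number of intronic circRNAs called was 0 in all 13 alternatives of the count fit, with the lowest adjusted p between 0.222 and 0.999. With no filter 3 of the 490 had an unadjusted p under 0.05, and the median log2 fold change of the 484 moved by 0.58. It moved by 0.23 without sham replicate 1 and by 0.21 with limma-voom. The sign turned for LOC102546835 (67855 bp) with no filter (0.23), with limma-voom (0.30), without SCI replicate 3 (0.17) and without sham replicate 1 (0.53). Its value with no filter still lay below the median of the 484 in that setting, 0.67. The sign also turned for LOC102546835 (71074 bp) without sham replicate 1 (0.17), for Pou2f1 without SCI replicate 2 (-0.17) and for Ddn without sham replicate 2 (0.0916). The leave-one-out ranges were -0.74 to 0.53, -2.80 to 0.17, -0.17 to 1.38 and -1.36 to 0.09, in the same order. Mapre2 stayed negative (-0.85 to -0.19), and the -0.19 was with no filter, beside that median of 0.67. At 2 or 3 reads for most intronic circRNAs, depth limits what single circRNAs can show.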
